A study of Homo sapiens with 4 samples.

Results

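Chromosome 8 carried 1528 of the 20450 regions of open chromatin called in the human colon cancer line RKO with or without a short hairpin RNA against CHD7. A region is a stretch in which peaks of 1 or more libraries overlapped by at least 1 bp, and the members are all regions built from peaks listed on chromosome 8 in 4 ATAC-seq libraries. In ATAC-seq the Tn5 transposase cuts DNA that is open to it, so that reads pile up over accessible chromatin. The control group was RKO cells stably infected with a control lentivirus (2 libraries), and the knockdown group was RKO cells stably infected with a lentivirus for shCHD7-2 (2 libraries). Each library started from 100000 nuclei, and the groups shared the cell line, the culture medium and lentiviral infection. A single hairpin was used in these libraries, the level of CHD7 was not measured in them, and whether the 2 libraries of a group came from separate cultures is not given, so the spread between them may be technical. The chromosome was selected on measured values, because few of its control regions were lost after knockdown. The values below on lost and gained regions, numbers of peaks and shares of the lists use the same calls and are therefore descriptions.

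CHD7 is a chromodomain helicase that uses ATP to move nucleosomes, and it binds promoters and enhancers. Its gene lies on the long arm of chromosome 8, as does the MYC oncogene. Gain of the long arm and loss of the short arm are recurrent in colorectal cancers. Copy number was not measured in these libraries, and genes were not placed on the regions because the gene table at hand describes another genome build than the files (hg19).

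The lists were of unequal length and depth. They held 12092 to 13257 peaks in control and 7199 to 8715 in shCHD7-2 on chromosomes 1 to 22 and X. The background that the peak caller took for a typical position, solved from the deposited values, was 0.843 to 0.916 reads in control and 1.40 to 1.62 reads in shCHD7-2. Above that floor, 100% of the solved local backgrounds in each of the 4 lists lay within 0.05 of a step of a whole multiple of 0.02 reads, so a read added the same amount to it in all libraries.

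Chromosome 8 lost fewer peaks than the rest of the genome and so took a larger share of the knockdown lists. It held 851 and 794 peaks in control replicates 1 and 2, and 649 and 763 peaks in shCHD7-2 replicates 1 and 2. Both knockdown libraries lay below both controls. The control mean was 822.5 ± 40.3 peaks and the knockdown mean 706 ± 80.6 peaks (SD over 2 libraries), a log2 ratio of -0.22. On the other chromosomes together the log2 ratio was -0.71. As a share of its own list, chromosome 8 rose from 6.42% and 6.57% in control to 9.02% and 8.76% in shCHD7-2, a log2 ratio of 0.45. A larger share follows in part from the choice of a chromosome with few lost regions, so it is a description. In number of peaks it stood in place 4 and 5 among the 23 chromosomes in the control lists, and in place 1 and 2 in the knockdown lists. By exact permutation (two-sided) p was 0.333 for each of these ratios, the smallest p that 2 libraries against 2 can give, so that no comparison of this design can pass 0.05. Cutting all lists to 7199 peaks turned the log2 ratio of peaks to 0.44.

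The covered length changed in the same way as the number of peaks. The length covered by peaks of chromosome 8 was 446 kb and 417 kb in the controls, falling to 293 kb and 344 kb in the knockdown libraries. Their median width was 445 bp and 441 bp in control, and 391 bp and 398 bp in shCHD7-2, so the knockdown peaks were both fewer and narrower. The narrowing was not particular to chromosome 8. On the other chromosomes the median width was 467 bp and 461 bp in control, and 403 bp and 407 bp in shCHD7-2. Chromosome 8 made up 6.47% and 6.72% of all covered bases in control, and 9.19% and 8.80% in shCHD7-2.

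On chromosome 8, 524 regions carried a peak in each control library, and 107 of these were lost, which means that neither shCHD7-2 library had a peak there (20.4%, 95% Wilson interval 17.2% to 24.1%). Over all chromosomes 34.4% of such regions were lost. A further 139 had a peak in 1 of the shCHD7-2 libraries, and 278, termed retained regions here, had one in every library. In the opposite direction, 50 of the 379 regions called in both shCHD7-2 libraries had no peak in either control library (13.2%, interval 10.2% to 16.97%). The share of such gained regions over all chromosomes was 11.0%. Chromosome 8 had the lowest share of lost regions and the highest number of gained regions among the 23 chromosomes, followed by chromosome X with 26.1% lost and 41 gained. A single library decided 791 of the 1528 regions (51.8%), near the 47.8% over all chromosomes. A peak missing from a list may lie just under the threshold and need not mark closed chromatin. The intervals cover counting error over regions, which are not independent. Single libraries decided more calls: 345 regions were lost without control replicate 2, 297 without control replicate 1, 191 without shCHD7-2 replicate 2 and 162 without shCHD7-2 replicate 1. The gained regions numbered 84 without control replicate 1, 263 without shCHD7-2 replicate 1 and 214 without shCHD7-2 replicate 2.

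**Figure D1:**
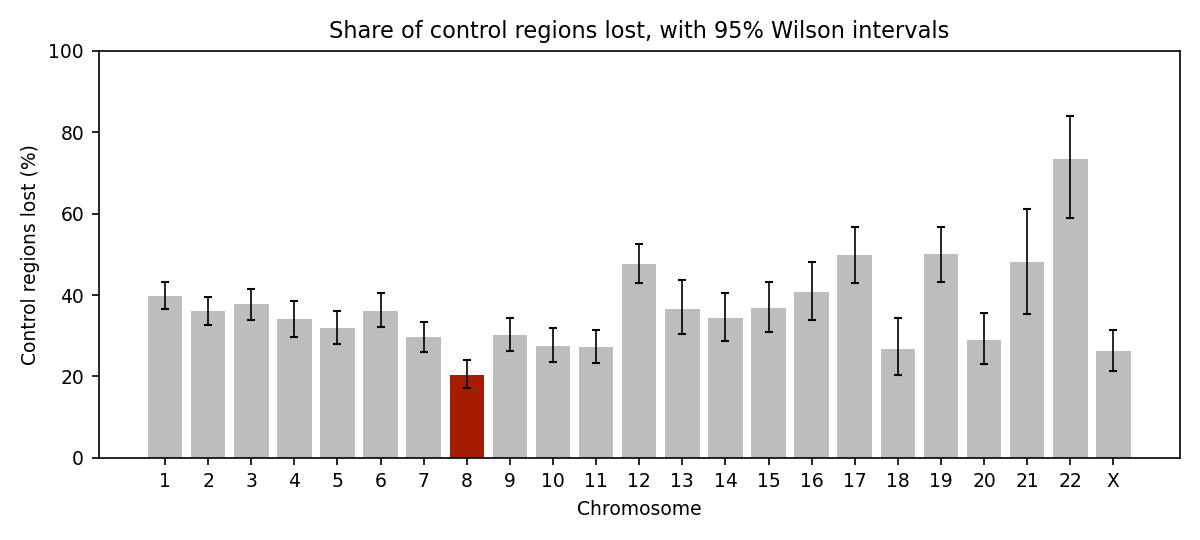
Share of control regions (a peak in each control library) without a peak in either shCHD7-2 library, in percent, for each of 23 chromosomes; bars give the share and lines the 95% Wilson interval over regions. Chromosome 8 (red) is lowest at 20.4% and X follows at 26.1%.

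The low share of lost regions, for which the chromosome was chosen, is split here by control strength. Control regions of all chromosomes were divided into 5 equal classes by their mean percentile rank (by -log10 p) in the control lists. In the weakest class chromosome 8 lost 38 of 81 regions (46.9%), against 65.8% on the other chromosomes. In the strongest class it lost 4 of 153 (2.61%), against 4.49%. The share was lower on chromosome 8 in all 5 classes. Its control regions also ranked higher by -log10 p as a whole, with a median percentile of 69.0 against 62.5 elsewhere. They were not stronger on each scale. In retained regions the median fold enrichment (a ratio to local background) was 7.05 and 7.06 in control replicates 1 and 2. On the other chromosomes it was 7.48 and 7.24.

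The same calls can be counted between single libraries, which is a recount and not separate support. Of the 842 regions with a peak in control replicate 1, 37.8% were missing from control replicate 2, against 53.9% and 49.0% missing from the knockdown lists 1 and 2. On the other chromosomes these shares were 34.5%, 64.2% and 59.0%. The step from the other control library to the knockdown libraries was thus smaller on chromosome 8. Seen from the knockdown side, 40.5% of the 637 regions in the list of shCHD7-2 replicate 1 were missing from the other knockdown list, and 39.1% and 42.2% from the control lists. On the other chromosomes these shares were 38.2%, 32.0% and 34.1%, so that knockdown regions of chromosome 8 were missing from the control lists more often than those elsewhere.

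The arms differed in density and, over regions of all strengths, in the share of lost regions. The short arm (regions ending under 43.1 Mb) held 228 regions, or 5.38 per Mb of its span, and the long arm (regions starting over 47.6 Mb) held 1296, or 13.2 per Mb. The other 4 regions lay between these limits. The last region of the short arm, from 42995919 to 42996456, had a peak in shCHD7-2 replicate 1 alone, and the first of the long arm, from 47726179 to 47726452, had one in shCHD7-2 replicate 2 alone. On the short arm 27 of 90 control regions were lost (30.0%, interval 21.5% to 40.1%), and on the long arm 80 of 434 (18.4%, interval 15.1% to 22.4%). The share over all chromosomes was 34.4%. Because the chromosome was chosen for a low share, the intervals are not a test against that value. Gained regions made up 6 of 43 knockdown regions on the short arm and 44 of 336 on the long arm, which are close shares of 14.0% and 13.1%. Without control replicate 2 the lost shares of the arms were 40.8% and 40.6%. Control regions of the short arm were also weaker, with a median percentile of 62.6 against 70.8 on the long arm. Within the 5 strength classes the short arm lost the larger share in 3 and the smaller in 2. In the weakest class it lost 11 of 20 regions (55.0%) against 44.3% on the long arm. In the second class it lost 6 of 19 (31.6%) against 28.9%, and in the fourth 6 of 21 (28.6%) against 8.64%. In the third class it lost 4 of 21 regions (19.0%) against 27.7%, and in the strongest 0 of 9 against 4 of 144 (2.78%). With 9 to 21 short-arm regions per class and both directions present, a difference between the arms at equal strength was not shown.

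Peaks per library fell on both arms, with an uneven pair of knockdown libraries on the short arm. The short arm held 130 and 134 peaks in control, and 79 and 116 in shCHD7-2. The long arm held 719 and 660 peaks in control, and 569 and 645 in shCHD7-2. The number of long-arm peaks per short-arm peak was 5.53 and 4.93 in control replicates 1 and 2, and 7.20 and 5.56 in shCHD7-2 replicates 1 and 2. The means of 5.23 ± 0.428 and 6.38 ± 1.16 (SD, n = 2 each) differed by less than the SD of the knockdown pair (log2 difference 0.28, exact two-sided permutation p = 0.333), so a shift between the arms was not shown.

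Along the chromosome, the share of lost regions differed between bins. Bins of 5 Mb held between 10 and 107 regions. Among the 24 bins with at least 10 control regions, the highest shares of lost regions were 8 of 12 (66.7%) from 75 to 80 Mb, 9 of 14 (64.3%) from 5 to 10 Mb and 14 of 22 (63.6%) from 145 Mb to the end. In these stretches both knockdown lists had few peaks: from 75 to 80 Mb they held 6 and 4 against 24 and 17 in control, and from 145 Mb onwards 7 and 8 against 29 and 28. The 5 to 10 Mb bin was less even, with 1 and 10 against 18 and 15. At the other end, none of 18 control regions was lost from 55 to 60 Mb, none of 17 from 70 to 75 Mb, and 1 of 22 (4.55%) from 90 to 95 Mb. With 18 or 17 regions, a count of 0 allows a share of up to 16.7% or 17.6%, for counting error only. Over all chromosomes the share lost was 34.4%. The bins named are the extremes of the 24, with small counts in each, so wide shares are no result by themselves.

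**Figure D2:**
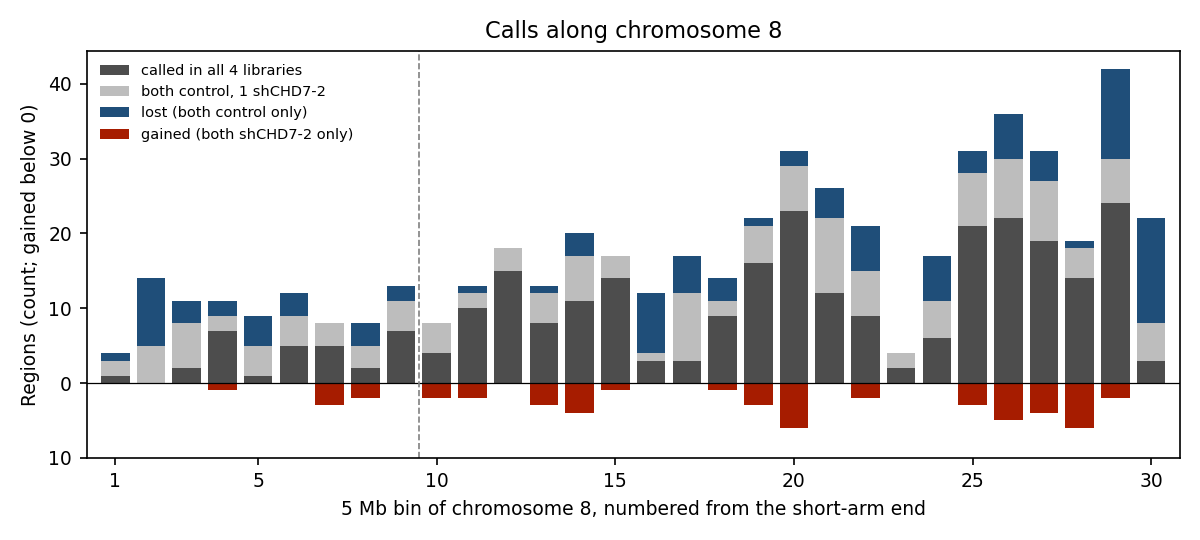
Regions per 5 Mb bin of chromosome 8, numbered from the short-arm end, as stacked counts of control regions above 0 (retained, called in 1 shCHD7-2 library, lost) and gained regions below 0; the dashed line marks the boundary at 45 Mb, within the interval between the arms. Bins 16 and 30 lost 8 of 12 and 14 of 22 control regions, and gained regions are most frequent in bins 20 and 28, with 6 each.

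The end of the long arm changed within a short distance. From 140 Mb to the end, 26 of 64 control regions were lost (40.6%). The adjoining 10 Mb, from 130 to 140 Mb, lost 5 of 50 (10.0%), against 34.4% over all chromosomes. This stretch also held 10 of the 50 gained regions on the chromosome, among 56 regions called in both knockdown libraries. That share of 17.9% is not far from the 13.2% on chromosome 8 and the 11.0% over all chromosomes. In 13 of 30 bins no region was gained, and in 5 none was lost. These 2 counts of bins have no share over all chromosomes beside them and are descriptions.

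In 4 bins both knockdown lists had more peaks than both control lists. From 135 to 140 Mb there were 30 and 32 peaks in control, and 44 and 48 in shCHD7-2. From 130 to 135 Mb there were 47 and 52 in control, and 54 and 67 in shCHD7-2. The others were from 30 to 35 Mb (10 and 13 against 15 and 19) and from 50 to 55 Mb (20 and 21 against 22 and 27). Over all chromosomes 5.76% of bins with at least 20 peaks over the 4 lists had more peaks in both knockdown lists, so 4 of 30 is a small count above that background. In 13 of the 30 bins both knockdown lists had fewer peaks, against 65.2% of bins over all chromosomes.

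**Figure D3:**
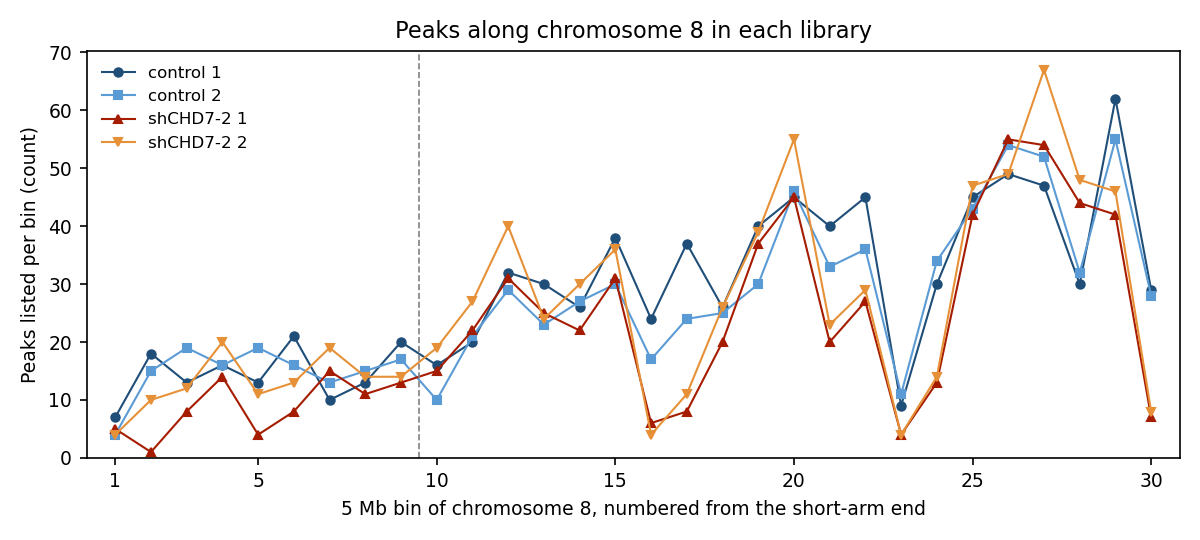
Number of peaks listed in each 5 Mb bin of chromosome 8 in the 4 libraries (control in blue, shCHD7-2 in red and orange), with bins numbered from the short-arm end and a dashed line at 45 Mb. The knockdown lines drop to 6 and 4 peaks in bin 16 and to 7 and 8 in bin 30, and exceed both controls in bins 27 and 28.

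The local background was higher on chromosome 8 than on any other chromosome, in all 4 libraries. The local background is the number of reads the caller expected at a peak from its surroundings. It is given here relative to the library background, so that 1 is the floor of a list. The window that sets it includes the peak's own reads. In the 278 retained regions its median was 3.09 and 3.19 in control replicates 1 and 2, and 2.03 and 2.03 in the shCHD7-2 replicates. Chromosome 9 came next in each library, with 2.66 and 2.70 in control and 1.56 and 1.55 in shCHD7-2. Fewer peaks of chromosome 8 lay at the floor itself: 5.79% in control replicate 2 and 10.7% in shCHD7-2 replicate 2, against 14.0% and 30.7% of peaks elsewhere. The chromosome as a whole was thus set apart before as well as after knockdown, but its short arm was not. The short-arm median was 2.02 and 2.18 in control, and 1.35 and 1.26 in shCHD7-2. On the other chromosomes together it was higher in each library, at 2.31 and 2.32 in control, and 1.37 and 1.36 in shCHD7-2.

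Relative to the library floor, the background of retained regions was lower after knockdown. It averaged 3.14 ± 0.0717 in control and 2.03 ± 0.00382 in shCHD7-2 (SD, n = 2 each). The log2 ratio was -0.63, with p = 0.333 in the exact permutation test. In reads, which do not allow for depth, the medians were 2.83 and 2.69 in control and 2.84 and 3.3 in shCHD7-2. The other chromosomes shifted further, with a log2 ratio of -0.77. Scaled to the retained regions of other chromosomes, the direction for chromosome 8 was reversed: its background was 1.35 ± 0.0265 times theirs in control and 1.49 ± 0.0147 times in shCHD7-2, a log2 ratio of 0.14. Region by region, the relative background was lower in both knockdown libraries than in both controls in 215 of 278 retained regions (81.5% over all chromosomes) and higher in 35 (6.95% over all chromosomes). The 35 were all on the long arm, which held 248 of the 278 retained regions.

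The long arm had the higher background in every library. Its median relative background was 3.23 and 3.32 in control, and 2.18 and 2.15 in shCHD7-2 (248 retained regions). On the short arm it was 2.02 and 2.18 in control, and 1.35 and 1.26 in shCHD7-2 (30 retained regions). The long arm thus had 1.56 ± 0.0553 times the background of the short arm in control and 1.66 ± 0.0649 times in shCHD7-2 (SD, n = 2 each). The difference of 0.09 on the log2 scale was of the order of the spread between replicates (exact two-sided permutation p = 0.333).

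**Figure D4:**
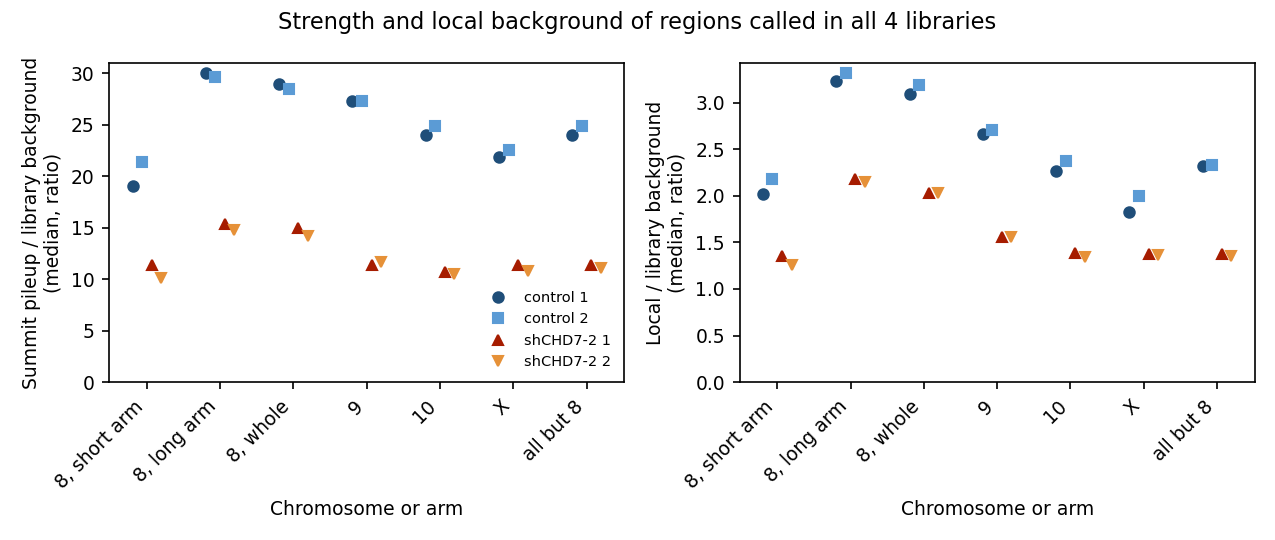
Median summit pileup (left) and median local background (right) of retained regions, both as ratios to the library background, for the arms of chromosome 8, the whole chromosome, the 3 chromosomes nearest to it in length and all chromosomes but 8; each point is 1 library. The long arm is highest in all 4 libraries in both panels, and the shCHD7-2 points lie under the control points throughout.

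A stretch of the long arm from 130 to 140 Mb stood out from this pattern. Of 20 bins on chromosome 8 with at least 5 retained regions, 18 had a lower median background in both knockdown libraries than in both controls and 2 had a higher one. Over all chromosomes 95.7% of such bins were lower and 0.984% were higher, which is 3 of 305 bins, and the third lay on chromosome X. From 135 to 140 Mb (14 retained regions) the median was 2.83 and 2.81 in control replicates 1 and 2, and 3.59 and 3.61 in the shCHD7-2 replicates. From 130 to 135 Mb (19 retained regions) it was 3.08 and 3.01 in control, and 3.34 and 3.31 in shCHD7-2. Groups did not overlap in either bin. Scaled to the retained regions of other chromosomes, 11 of the 20 bins and not 2 were higher in both knockdown libraries, so the number of such bins depends on the scale, while the order of the bins by ratio is the same on both scales by construction. The ratios of shCHD7-2 to control, 1.28 and 1.09, were the first and the third highest of the 305 bins, and over the 4 pairings of a knockdown with a control library they ran from 1.27 to 1.28 and from 1.08 to 1.11.

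The same 2 bins are described by other values as follows. They are named for the median background of their retained regions, so the counts by region and the window reads in part restate it. Of their 33 retained regions, 18 had a higher and 11 a lower relative background in both knockdown libraries than in both controls. In the other 245 retained regions of the chromosome 17 were higher and 204 lower. Over all chromosomes 6.95% of retained regions were higher and 81.5% lower. In reads, the median window behind a background in these 33 regions held 140 and 124 reads in control, and 246 and 279 in shCHD7-2. With all peaks of each list in place of retained regions, the medians from 135 to 140 Mb were 2.46 and 2.53 in control, and 3.24 or more in both shCHD7-2 libraries. The median summit pileup over the library background was 22.9 and 23.7 in control and 19.99 and 19.1 in shCHD7-2, a smaller gap than over the whole chromosome. The bins on either side had a lower background after knockdown: 3.46 and 3.68 against 2.28 and 2.54 from 125 to 130 Mb, and 3.02 and 3.12 against 2.16 and 1.87 from 140 to 145 Mb. The number of peaks was higher in the same 2 bins after knockdown, and since a window includes the reads of its peak, the part of the peaks in the background was not tested.

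**Figure D5:**
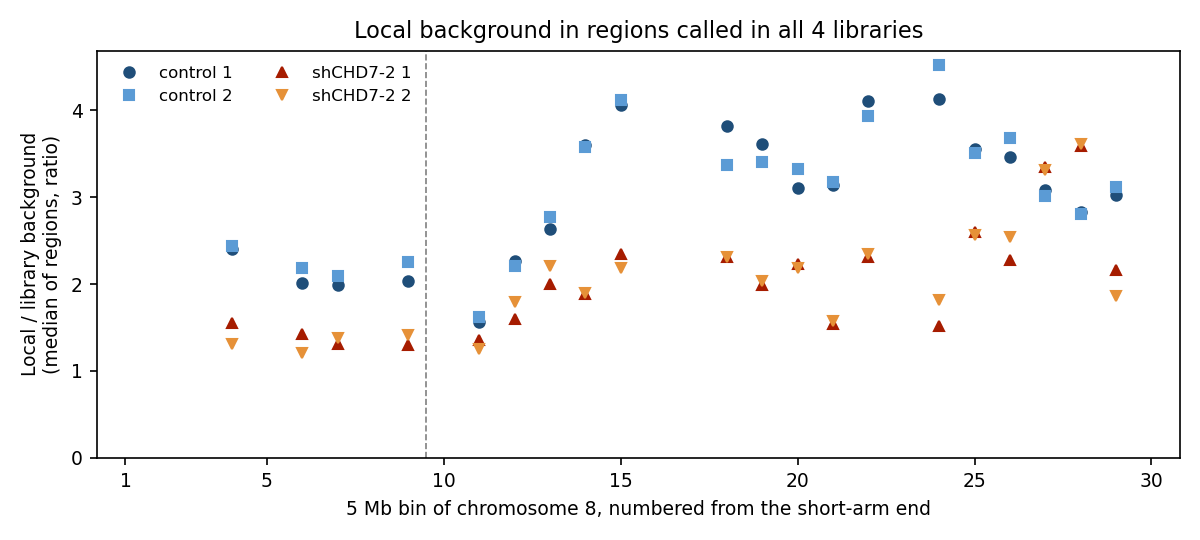
Median local background over library background in retained regions, per 5 Mb bin of chromosome 8 with at least 5 such regions, numbered from the short-arm end; each point is 1 library and the dashed line lies at 45 Mb. The shCHD7-2 points lie under the control points in 18 of 20 bins and above them in bins 27 and 28.

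The lowest ratio among these 20 bins was 0.384, from 115 to 120 Mb. There the median relative background was 4.13 and 4.52 in control and 1.52 and 1.81 in shCHD7-2 (6 retained regions). It was followed by 0.492 from 100 to 105 Mb and 0.526 from 65 to 70 Mb. The most densely occupied bins were from 130 to 135 Mb with 107 regions, from 125 to 130 Mb with 100 and from 140 to 145 Mb with 95, whose ratios were 1.09, 0.674 and 0.653. Dense bins of the long arm thus lay on both sides of 1.

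Retained regions of chromosome 8 were weaker after knockdown on each scale that was used for strength. The median summit pileup of the 278 retained regions was 26.5 and 24 reads in control replicates 1 and 2, and 21 and 23 reads in the shCHD7-2 replicates, although the library background was higher in the knockdown libraries. Over the library background it was 28.9 and 28.5 in control, and 14.99 and 14.2 in shCHD7-2. The means were 28.7 ± 0.326 and 14.6 ± 0.582 (SD, n = 2 each), which is a log2 ratio of -0.98. The deposited fold enrichment over the local background had medians of 7.05 and 7.06 in control, and 5.52 and 5.40 in shCHD7-2, a log2 ratio of -0.37. The groups did not overlap on any of these scales (exact two-sided permutation p = 0.333 for each). Retained regions had to pass the threshold in all 4 lists, so weak ones are under-represented in these medians. Over all listed peaks of chromosome 8 the median summit in reads was not lower: 16 and 15 in control, 16 and 17 in shCHD7-2. For these peaks the log2 ratio was -0.69 in summit pileup over the library background and -0.21 in fold enrichment.

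Counted by region, most members moved the same way. The summit pileup over the library background was lower in both knockdown libraries than in both controls in 243 of 278 retained regions (89.3% over all chromosomes) and higher in 6 (1.09% over all chromosomes). Fold enrichment was lower in 197 (66.1% over all chromosomes) and higher in 5 (2.77% over all chromosomes). These counts were close to the background, so the strength of retained regions on chromosome 8 changed much as it did elsewhere. The size of the change was somewhat smaller in pileup, with a log2 ratio of -0.98 against -1.12 on the other chromosomes, and alike in fold enrichment, with -0.37 against -0.35.

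The classes of regions differed in width and rank. Retained regions had a median width of 860.5 bp (336 to 1988 bp), lost regions 566 bp, gained regions 494 bp and regions of a single library 289 bp. Lost regions lay at a median percentile of 47.3 in the control lists, and retained ones at 83.4. Gained regions lay at a median percentile of 56.4 in the shCHD7-2 lists, with median summits of 16.5 and 19 reads in replicates 1 and 2. Of the 107 lost regions, 38 fell in the weakest of the 5 strength classes of control regions and 4 in the strongest.

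The 5 lost regions of highest rank all lay on the long arm, and 3 of them were in its last 2 Mb. The first spanned 145158680 to 145159468 (hg19, mean percentile 91.6), with summits of 33 and 34 reads in control replicates 1 and 2. The second spanned 79932964 to 79933676, with 28 and 19 reads. The third spanned 144623068 to 144624083, with 24 and 26 reads. In these regions both knockdown lists had no peak, while both controls were far above their lowest summit of 6 reads. The other 2 spanned 128981602 to 128982155 (28 and 28 reads) and 145550361 to 145551198 (30 and 27 reads).

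The 5 gained regions of highest rank also lay on the long arm, and 4 of them fell in the stretch from 130 to 140 Mb. The first spanned 136240658 to 136241370 (mean percentile 92.9), with summits of 40 and 34 reads in shCHD7-2 replicates 1 and 2 over local backgrounds of 6.10 and 6.18 reads. The second spanned 133618998 to 133619821, with 27 and 38 reads. The third spanned 135984421 to 135985078, with 29 and 41 reads over backgrounds of 6.20 and 6.68 reads, and so had the highest surroundings of the 5. The fourth spanned 138346773 to 138347398 (26 and 33 reads), and the fifth, outside that stretch, spanned 96420056 to 96420796 (29 and 30 reads).

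The strongest retained regions were weaker after knockdown relative to the library background, and all but one were weaker in reads as well. The first, from 93977237 to 93978747, had summits of 91 and 85 reads in control and 64 and 63 reads in shCHD7-2. The region from 86132248 to 86133181 had 68 and 65 reads in control and 50 and 51 in shCHD7-2. From 120885689 to 120887007 there were 70 and 71 reads against 45 and 52, and from 49426761 to 49427767 there were 55 and 45 against 44 and 44. In these 4 the knockdown libraries lay under both controls. The region from 97657127 to 97658137 had 77 and 63 reads in control and 66 and 75 in shCHD7-2, so that the groups overlapped in reads. With library backgrounds of 0.916 and 0.843 reads in control and 1.40 and 1.62 in shCHD7-2, its summits relative to these were lower in both knockdown libraries. Its relative background of 6.40 and 7.05 in control and 5.25 and 4.34 in shCHD7-2 did not overlap.

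Chromosomes 9, X and 10, the nearest in length, lay between chromosome 8 and the genome as a whole in the share of lost regions. They lost 30.1%, 26.1% and 27.4% of their control regions. Gained regions made up 7.25%, 19.9% and 7.29% of their knockdown regions, so that X and not chromosome 8 was highest in this respect. The median relative background of retained regions changed by a log2 ratio of -0.79 on chromosome 9, -0.48 on X and -0.77 on chromosome 10, against -0.63 on chromosome 8. The smaller shift was therefore shared by X, on which the background was the lowest of these 4 chromosomes in both control libraries.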

How the data were processed

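Each library was deposited by the authors as a list of peaks called separately, on build hg19. The submitters' processing notes name Bowtie2 2.2.5, SAMtools 1.9, MACS2 2.1.2 and deepTools 3.3.0; settings, the Tn5 shift and the removal of duplicates are not given in the sources used here, and each would change which positions pass. The lists deposited by the authors give, per peak, the fold enrichment (a ratio to local background), the -log10 p and -log10 q, and a score that follows -log10 q times 10, which was not used. The lowest -log10 q was 1.30 to 1.32, so q was under 0.05.

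Whole-number summit pileups k and local backgrounds b were solved from fold = (k + 1) / (b + 1) and the Poisson p, with b not under the library background. This held within 0.001 in -log10 p for 100% of peaks. The library background is the most frequent b of a list. The solution and the calling of regions were tested on simulated data.

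Peaks on chromosomes 1 to 22 and X were merged at 1 bp of overlap, and a region's value in a list is that of its peak with the highest -log10 p. Peaks on other scaffolds (13 to 16 per list) were left out. Bins of 5 Mb hold the regions that start in them, counted from 0. Group differences were taken on log2 values per library and tested by the exact two-sided permutation test over 6 assignments. Named regions are the 5 lost, 5 gained and 5 retained ones of highest mean percentile rank and those nearest the arm limits; named bins have the most regions or the highest and lowest shares and ratios. The members, lists and rules were chosen with earlier results of these data known. In retained regions of chromosome 8 the summits of a pair of replicates varied less than Poisson counts would (chi-square per region 0.599 in control and 0.558 in shCHD7-2). Regions called in every list are a selected set and the lists of a pair were not alike, so each library was counted as 1 replicate. Scripts ran in Python 3.11.15 with statsmodels 0.14.6, SciPy 1.17.1, pandas 2.3.3, NumPy 2.4.6 and, for figures, matplotlib 3.10.9.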

Additional observations from a re-analysis of the deposited data

How the results depend on the processing

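Counts and shares of regions depended on the threshold. With a -log10 q of at least 5, 60.0% of short-arm and 31.0% of long-arm control regions were lost. With at least 10, these were 84.6% and 42.3%, and 4 regions were gained. With a fold enrichment of at least 5, they were 48.4% and 33.9%, with 13 gained. Lists of equal length gave 47 lost and 90 gained regions, 11.5% lost on the long arm and a log2 ratio of chromosome 8 peaks of 0.44, the reverse of -0.22, since this removes the weaker control peaks by construction. The short arm lost the larger share under each of these settings. Leaving out 1 library, so that a single library decides a call, gave 162 to 345 lost and 68 to 263 gained regions, and 40.8% to 54.4% lost on the short and 28.6% to 40.6% on the long arm. The log2 ratio of local background reversed to 0.14 when scaled to other chromosomes. The bins with a higher background in both knockdown libraries numbered 2, or 1 with bins of 10 Mb (130 to 140 Mb). In settings chosen after seeing the data they numbered 3 with all peaks, 11 when scaled to other chromosomes, and 2 without each library. With a replicate block the log2 ratios are the same by construction, because the groups are balanced over replicate numbers. They were -0.22 for peaks, 0.45 for the share of the list, -0.63 for background, -0.98 for pileup and -0.37 for fold enrichment. The exact permutation within pairs gave p = 0.5, the lowest value that 2 pairs can give, so it cannot decide. Deviations in calls of same-numbered libraries correlated at 0.02 over the regions of chromosome 8. Whether same-numbered libraries were prepared together is not given and cannot be told from this value. Depth limits what a missing peak means: the lowest summit listed on chromosome 8 held 6 reads in control and 8 in shCHD7-2.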
